A study of Oryza sativa Japonica Group with 30 samples.

Results

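Cuticular wax is the lipid layer that covers the leaf surface of rice and limits the loss of water through the epidermis. Its precursors are very-long-chain fatty acids, which are elongated by enzymes of the 3-ketoacyl-CoA synthase family and then turned into aldehydes, alkanes, alcohols and esters. Enzymes of the GLOSSY1 (GL1) family, related to CER1 and CER3 of Arabidopsis, act in the alkane branch, and transcription factors of the WIN1/SHN type of ethylene response factor regulate the genes of the pathway. The 6 genes described here were chosen by name, from 55490 features in the expression table, as wax enzymes and wax regulators of rice. The enzymes are *WSL1* (LOC_Os06g39750), a 3-ketoacyl-CoA synthase, and 3 genes of the GL1 family, *OsGL1-1* (LOC_Os09g25850), *OsGL1-6* (LOC_Os02g56920) and *WDA1* or *OsGL1-5* (LOC_Os10g33250). The regulators are *OsWR1* (LOC_Os02g10760) and *OsWR2* (LOC_Os06g40150). The MSU identifier names the chromosome after the letters Os, and gene coordinates were not used here.

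Leaves were compared at the 4-leaf stage in OE-19, a single transgenic line that carries the full coding sequence of *SNAC1*, a drought-induced NAC transcription factor gene, behind the maize ubiquitin promoter, and in its parent variety ZH11. Both genotypes grew side by side in the same pots, with 10 plants of each per pot, and drought meant 10 to 15 days without water until the leaves rolled and yellowed. The 4 groups were SNAC1-D (OE-19 under drought), SNAC1-N (OE-19 under normal watering), ZH11-D and ZH11-N, with 3 RNA-Seq libraries each and 12 in all. The values are FPKM (fragments per kilobase of exon, scaled to the mapped fragments of the library). They are relative to gene length and can therefore be set side by side between genes. Fold changes (log2FC) are differences of mean log2(FPKM + 0.5), which understate the change of genes with low FPKM.

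*SNAC1* (LOC_Os03g60080) itself followed the labels. It had 667, 981 and 747 FPKM in SNAC1-D, 764, 995 and 781 FPKM in SNAC1-N, 329, 530 and 430 FPKM in ZH11-D and 27.2, 44.8 and 39.7 FPKM in ZH11-N. The log2FC of SNAC1-N over ZH11-N was 4.51 (limma, adjusted p = 1.03e-05), whereas that of SNAC1-D over ZH11-D was 0.90 (limma, adjusted p = 0.949). SNAC1-D was nevertheless above ZH11-D in all 3 libraries with no overlap, and with the replicate number as a block within each watering condition the limma adjusted p was 0.0483, the log2FC staying below 1. The drought change of *SNAC1* differed between the genotypes by -3.61 (OE-19 minus ZH11, limma adjusted p = 0.0168). Summed FPKM per library ranged from 728628 to 952207. This sum is not a depth, and because no fragment counts were used the counting error of a low value is unknown. The summed FPKM of 5 leaf marker loci was 9541 to 18337 in SNAC1-D, 37854 to 56232 in SNAC1-N, 9077 to 17956 in ZH11-D and 37627 to 63030 in ZH11-N. Of these loci, 5 were called lower under drought in OE-19 and 4 in ZH11, where 17.9% and 18.2% of all features tested were called lower. The locus not called in ZH11, LOC_Os09g17740, had a log2FC of -0.99 there and -1.02 in OE-19, on either side of the threshold. Whether this fall has a part in the results below was not tested, and in whole leaves fewer cells of a type and less RNA per cell cannot be told apart. The 6 anther marker loci summed to 1.24 to 3.54 FPKM over all libraries, and 1 of them was at 0 in all 12. The shoot meristem marker was at 0 in all 12 libraries, and the 2 root marker loci summed to 8.36 to 16.5 FPKM.

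Most of the wax genes were well expressed in watered leaves and were much lower after drought. Under normal conditions the order of mean FPKM in ZH11-N was *WSL1* (64.6), *OsWR2* (53.3), *OsGL1-1* (34.5), *OsWR1* (23.6), *OsGL1-6* (12.9) and *WDA1* (0.0130). Each gene from *WSL1* to *OsGL1-6* overlapped its neighbour in this order library by library, while *WDA1* lay below every library of the others. In ZH11-D the order was *OsGL1-1* (39.7), *WSL1* (13), *OsWR1* (3.43), *OsWR2* (3.27), *OsGL1-6* (3.09) and *WDA1* (1.92). *OsGL1-1* was thus above all libraries of the other members under drought, and the last 4 genes overlapped each other. The same first and last genes were seen in SNAC1-D, where *OsGL1-1* averaged 45.4 FPKM, *WSL1* 13.3 FPKM and *WDA1* 1.44 FPKM.

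**Figure D1:**
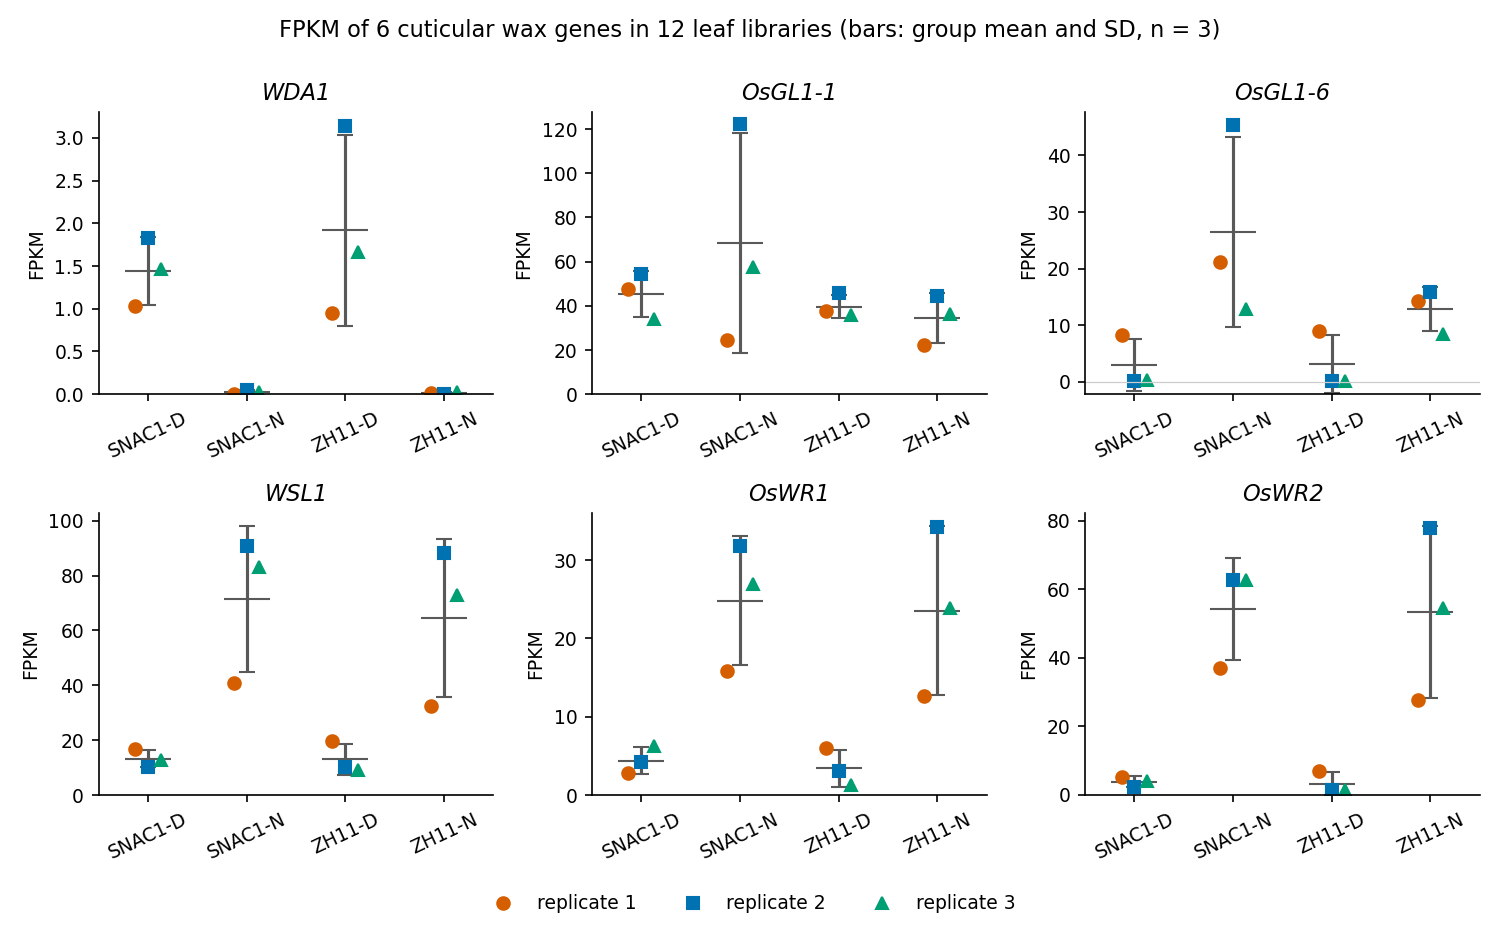
FPKM of each wax gene (vertical axes, linear, one scale per gene) in the 4 groups, with one symbol per library by replicate number, a line at the group mean and bars of 1 SD (n = 3). *WSL1*, *OsWR1* and *OsWR2* lie lower in every drought library than in any library from normal conditions, *WDA1* lies higher, *OsGL1-1* overlaps throughout, and *OsGL1-6* has 1 drought library per genotype (8.28 FPKM in SNAC1-D and 8.98 FPKM in ZH11-D) far above the other 2.

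Which members responded to drought was asked in each genotype separately, in one limma fit over the 4 groups. A member was called when its adjusted p was below 0.05 and its log2FC was past 1 in either direction, and 5 of the 6 members passed the filter of a mean of 1 FPKM over all libraries, *WDA1* being left out. In OE-19, 4 of the 5 tested members were called, all lower in SNAC1-D, where 17.9% of the 19979 features tested were called lower and 13.2% higher. In ZH11, the same 4 members were called, again all lower in ZH11-D, where 18.2% of all features were called lower and 13.8% higher. The median log2FC of the 5 tested members was -2.36 for OE-19 and -2.70 for ZH11, against medians of 0.07 and 0.06 over all features. The genes called were *WSL1*, *OsGL1-6*, *OsWR1* and *OsWR2*, that is, the elongating enzyme, 1 enzyme of the GL1 family and both regulators.

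*WSL1*, whose product elongates very-long-chain fatty acids for leaf wax, had 16.7, 10.4 and 12.8 FPKM in SNAC1-D and 41.0, 90.6 and 82.9 FPKM in SNAC1-N. In ZH11 it had 19.6, 10.1 and 9.33 FPKM in ZH11-D and 32.4, 88.3 and 72.9 FPKM in ZH11-N. All drought libraries lay below all libraries from normal conditions in both genotypes, with replicate 1 the closest to the other condition in each of the 4 groups. The mean was 5.37-fold lower in SNAC1-D than in SNAC1-N and 4.97-fold lower in ZH11-D than in ZH11-N. The log2FC was -2.33 in OE-19 (SE 0.437, limma adjusted p = 0.00137) and -2.23 in ZH11 (limma adjusted p = 0.00169), and the exact two-sided permutation p was 0.1 in each, the smallest that 3 libraries against 3 allow.

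*OsGL1-6*, a GL1 family gene needed for leaf wax in rice, was the most uneven member under drought. It had 8.28, 0.221 and 0.392 FPKM in SNAC1-D and 21.1, 45.3 and 12.9 FPKM in SNAC1-N. In ZH11 it had 8.98, 0.120 and 0.181 FPKM in ZH11-D and 14.3, 15.9 and 8.46 FPKM in ZH11-N. Replicates 2 and 3 were thus below 0.5 FPKM under drought in both genotypes, whereas replicate 1 was far above both, and ZH11-D replicate 1 exceeded ZH11-N replicate 3. The log2FC was -3.73 in OE-19 (SE 1.15, 95% interval -6.29 to -1.18, limma adjusted p = 0.0193, exact permutation p = 0.1). In ZH11 it was -3.03 (SE 1.15, 95% interval -5.58 to -0.48, limma adjusted p = 0.0458, exact permutation p = 0.2). Both calls rest on few libraries. In OE-19 the limma adjusted p was 0.0768 without SNAC1-D replicate 2, 0.0718 without SNAC1-D replicate 3 and 0.0672 without SNAC1-N replicate 2, and in ZH11 the call was lost in 11 of 23 alternatives, 9 of which left out 1 library and gave adjusted p values of 0.0524 to 0.161. When both drought libraries numbered 1 were left out, a choice made after the values were seen, the log2FC was -4.89 in OE-19 (limma adjusted p = 0.000118) and -4.32 in ZH11 (limma adjusted p = 0.000178).

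*OsGL1-1*, the GL1 family gene also called *WSL2*, is needed for leaf wax in rice and did not pass the test in either genotype. It had 47.6, 54.6 and 33.9 FPKM in SNAC1-D and 24.7, 122 and 57.6 FPKM in SNAC1-N. In ZH11 it had 37.5, 45.8 and 35.7 FPKM in ZH11-D and 22.3, 44.6 and 36.4 FPKM in ZH11-N. The groups overlapped in both genotypes, and SNAC1-N held both the highest library and nearly the lowest. The log2FC was -0.33 in OE-19 (95% interval -1.40 to 0.75, limma adjusted p = 0.592) and 0.25 in ZH11 (95% interval -0.83 to 1.32, limma adjusted p = 0.686). These intervals leave room for changes of more than 1 on the log2 scale.

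*WDA1*, known in rice for the wax of the anther epidermis, was hardly detected in watered leaves and was higher under drought. It had 1.03, 1.83 and 1.46 FPKM in SNAC1-D and 0.00420, 0.0454 and 0.0225 FPKM in SNAC1-N. In ZH11 it had 0.95, 3.14 and 1.66 FPKM in ZH11-D, against 0.0170 and 0.0219 FPKM in replicates 1 and 3 of ZH11-N, while replicate 2 was listed at 0. Every drought library was higher than every library from normal conditions, with replicate 1 the lowest and replicate 2 the highest under drought in both genotypes. The mean over the 12 libraries was 0.849 FPKM, below the filter, so the gene was not tested in the reported fit. The difference of the mean log2 values was 1.87 for OE-19 and 2.13 for ZH11, with an exact permutation p of 0.1 in each. When the filter was dropped and 33888 features were tested, of which 8.13% were called higher in SNAC1-D and 8.58% in ZH11-D, limma gave an adjusted p of 0.000779 in OE-19 and 0.000352 in ZH11. Both rest on an SE of 0.282 shared by the 4 groups. The pseudocount held the libraries from normal conditions within 0.0584 of their group means, whereas a drought library deviated by up to 0.694. The size depended on the pseudocount: it was 3.61 and 4.01 in OE-19 and ZH11 with 0.1 in place of 0.5, and 1.24 and 1.46 with 1. None of the anther marker loci passed the filter, and their sum overlapped between the groups, at 1.24 to 2.54 FPKM in SNAC1-D, 2.10 to 2.95 FPKM in SNAC1-N, 1.39 to 2.56 FPKM in ZH11-D and 1.35 to 3.54 FPKM in ZH11-N. The sum held loci that moved in opposite directions. LOC_Os02g02820 averaged 0.0135 FPKM in SNAC1-D and 0.640 in SNAC1-N, and 0.0328 in ZH11-D and 0.803 in ZH11-N. LOC_Os03g07140 averaged 0.572 FPKM in SNAC1-D and 0.411 in SNAC1-N, and 0.667 in ZH11-D and 0.177 in ZH11-N.

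Both regulators were strongly lower under drought. *OsWR1*, an activator of wax synthesis genes in rice, had 2.86, 4.19 and 6.22 FPKM in SNAC1-D and 15.8, 31.8 and 26.9 FPKM in SNAC1-N. In ZH11 it had 5.96, 3.05 and 1.26 FPKM in ZH11-D and 12.7, 34.2 and 23.8 FPKM in ZH11-N. No drought library reached the lowest library from normal conditions, and the order of the drought replicates was opposite in the 2 genotypes. The mean was 5.61-fold lower in SNAC1-D than in SNAC1-N (log2FC -2.36, SE 0.505, limma adjusted p = 0.00293) and 6.88-fold lower in ZH11-D than in ZH11-N (log2FC -2.70, limma adjusted p = 0.00127). Without ZH11-D replicate 1 the value for ZH11 was 10.9-fold (log2FC -3.16).

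*OsWR2*, the related regulator of wax and cutin synthesis, had a lower log2FC under drought than *WSL1* and *OsWR1* in both genotypes. It had 5.24, 2.18 and 4.14 FPKM in SNAC1-D and 37.0, 62.7 and 62.7 FPKM in SNAC1-N. In ZH11 it had 7.13, 1.33 and 1.36 FPKM in ZH11-D and 27.7, 77.7 and 54.4 FPKM in ZH11-N. The groups did not overlap, and replicate 1 was again the highest under drought and the lowest under normal conditions in both genotypes. The mean was 14.0-fold lower in SNAC1-D than in SNAC1-N and 16.3-fold lower in ZH11-D than in ZH11-N, and without ZH11-D replicate 1 the value for ZH11 was 39.5-fold (log2FC -4.74). The log2FC was -3.68 in OE-19 (SE 0.574, limma adjusted p = 0.000454) and -4.06 in ZH11 (limma adjusted p = 0.000230), and the exact permutation p was 0.1 for both regulators in both genotypes.

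**Figure D2:**
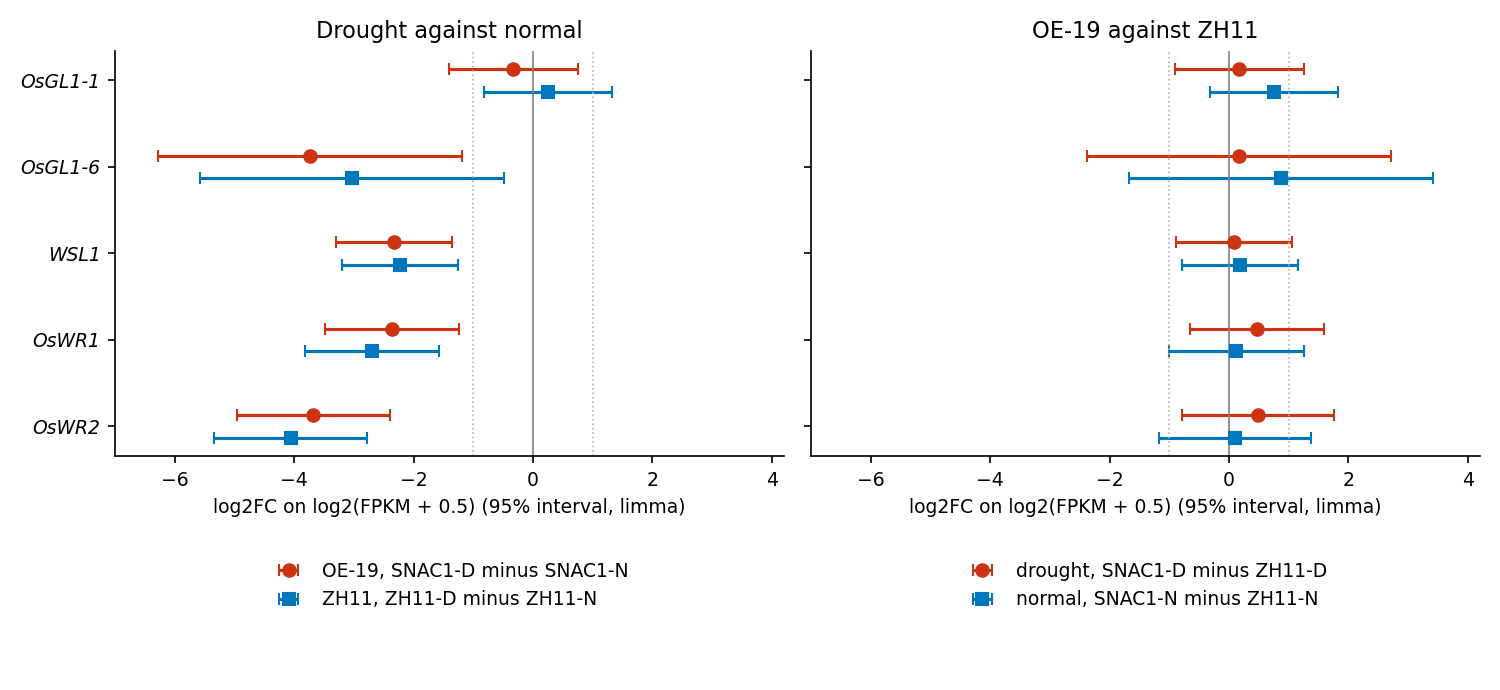
log2FC of the 5 tested wax genes on the log2(FPKM + 0.5) scale, with 95% intervals from limma, for drought against normal conditions (left, one symbol per genotype) and for OE-19 against ZH11 (right, one symbol per watering condition). Dotted lines mark a log2FC of 1 in size. The drought values of *OsGL1-6*, *WSL1*, *OsWR1* and *OsWR2* lie between -2.23 and -4.06 with intervals below 0, whereas all 10 intervals of OE-19 against ZH11 include 0.

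Whether the overexpression of *SNAC1* went with other levels of the wax genes was asked under each watering condition. None of the 5 tested members was called between SNAC1-N and ZH11-N or between SNAC1-D and ZH11-D by limma, and none had an unadjusted p below 0.05 in either comparison. Few genes were called at all, since 0.265% of the features tested passed under normal conditions and 0.305% under drought. The median log2FC of the members was 0.19 under normal conditions and 0.17 under drought, against -0.01 and -0.02 over all features.

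*WSL1* had a log2FC of 0.09 between SNAC1-D and ZH11-D (95% interval -0.88 to 1.06) and 0.19 between SNAC1-N and ZH11-N (95% interval -0.79 to 1.16). Differences of up to about 1 on the log2 scale in either direction are within these intervals, which come from the fit without a block. With the replicate number as a block within each watering condition, the SE was 0.132 in place of 0.437. The unadjusted limma p was then 0.537 under drought and 0.205 under normal conditions. For the regulators the values under drought were 0.46 for *OsWR1* (95% interval -0.66 to 1.58) and 0.49 for *OsWR2* (95% interval -0.79 to 1.76). Under normal conditions they were 0.12 and 0.10. The ratios of SNAC1-D to ZH11-D in replicates 1, 2 and 3 were 0.479, 1.37 and 4.93 for *OsWR1*, and 0.736, 1.64 and 3.04 for *OsWR2*. In both genes replicate 1 was thus lower in SNAC1-D and replicate 3 had the highest ratio. *OsWR1* had 1.26 FPKM in ZH11-D replicate 3. Without that library the log2FC was -0.0193 for *OsWR1* and 0.15 for *OsWR2*. *WDA1* differed by -0.24 between SNAC1-D and ZH11-D and by 0.03 between SNAC1-N and ZH11-N on the log2 scale (exact permutation p = 0.7 and 0.4).

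The members *OsGL1-6* and *OsGL1-1* were higher in every SNAC1-N library than in the ZH11-N library of the same number. For *OsGL1-6* the ratios of SNAC1-N to ZH11-N were 1.48, 2.84 and 1.53, with a log2FC of 0.87 (limma adjusted p = 1, exact permutation p = 0.3). For *OsGL1-1* they were 1.11, 2.74 and 1.58, with a log2FC of 0.75 (95% interval -0.33 to 1.82, limma adjusted p = 1, exact permutation p = 0.4). Neither passed the test, and the highest ratio of each gene came from replicate 2. Without SNAC1-N replicate 2, and with ZH11-N replicate 2 kept, the log2FC was 0.40 for *OsGL1-6* and 0.19 for *OsGL1-1*. The labels put both genotypes in shared pots and same-numbered libraries deviated together within a watering condition, so the number was also used as a block there. Under that block limma gave unadjusted p values of 0.00357 for *OsGL1-6* and 0.0144 for *OsGL1-1*, and adjusted p values of 0.305 and 0.546, so no call was made. *WSL1* was higher in SNAC1-N in all 3 pairs, by ratios of 1.27, 1.03 and 1.14, but its unadjusted limma p under that block was 0.205. *OsWR1* and *OsWR2* were higher in 2 of 3 pairs. How many of all features were higher in all 3 pairs was not computed, so these directions are a description. Under drought the ratios of SNAC1-D to ZH11-D were 0.922, 1.84 and 2.16 for *OsGL1-6* and 1.27, 1.19 and 0.951 for *OsGL1-1*, higher in 2 of 3 pairs for each.

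The difference of the drought responses themselves (OE-19 minus ZH11) was tested as an interaction. No tested member was called, 0 had an unadjusted p below 0.05, and 0.02% of all features passed. The values were -0.71 for *OsGL1-6*, -0.58 for *OsGL1-1*, -0.10 for *WSL1*, 0.34 for *OsWR1* and 0.38 for *OsWR2*, with standard errors of 1.62 for *OsGL1-6*, 0.684 for *OsGL1-1*, 0.714 for *OsWR1* and 0.812 for *OsWR2*, and each limma adjusted p rounded to 1. For *WSL1* the 95% interval without a block was -1.47 to 1.27, from an SE of 0.617, which was 0.186 with the within-condition block. With the within-condition block, *OsGL1-6* had an unadjusted p of 0.0415 and a limma adjusted p that rounded to 1.00.

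The libraries numbered 1 stood apart in several wax genes. Under drought, replicate 1 was the highest of its group in both genotypes for *OsGL1-6*, *WSL1* and *OsWR2*, and the lowest for *WDA1*. For *OsWR1* it was the highest in ZH11-D and the lowest in SNAC1-D. Under normal conditions replicate 1 was the lowest in both genotypes for *OsGL1-1*, *WSL1*, *OsWR1* and *OsWR2*. Over all tested features, the drought change of each drought library was expressed as a share of the mean drought change of the other genotype, and this share was 0.856, 1.03 and 0.958 in SNAC1-D and 0.851, 1.1 and 1.07 in ZH11-D. Replicate 1 thus had the smallest share in both genotypes, and its part in the values above was not tested. Without all 4 libraries numbered 1, again a choice made after the values were seen, the same 4 genes were called lower in each genotype, where 22% of all features were called lower in OE-19 and 22.6% in ZH11. *WDA1* then passed the filter only through its drought libraries, so its call is not counted. The log2FC of *OsWR2* was then -4.16 in OE-19 and -5.15 in ZH11, and that of *OsGL1-1* was -0.96 in OE-19 (limma adjusted p = 0.0586) and 0.00 in ZH11.

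**Figure D3:**
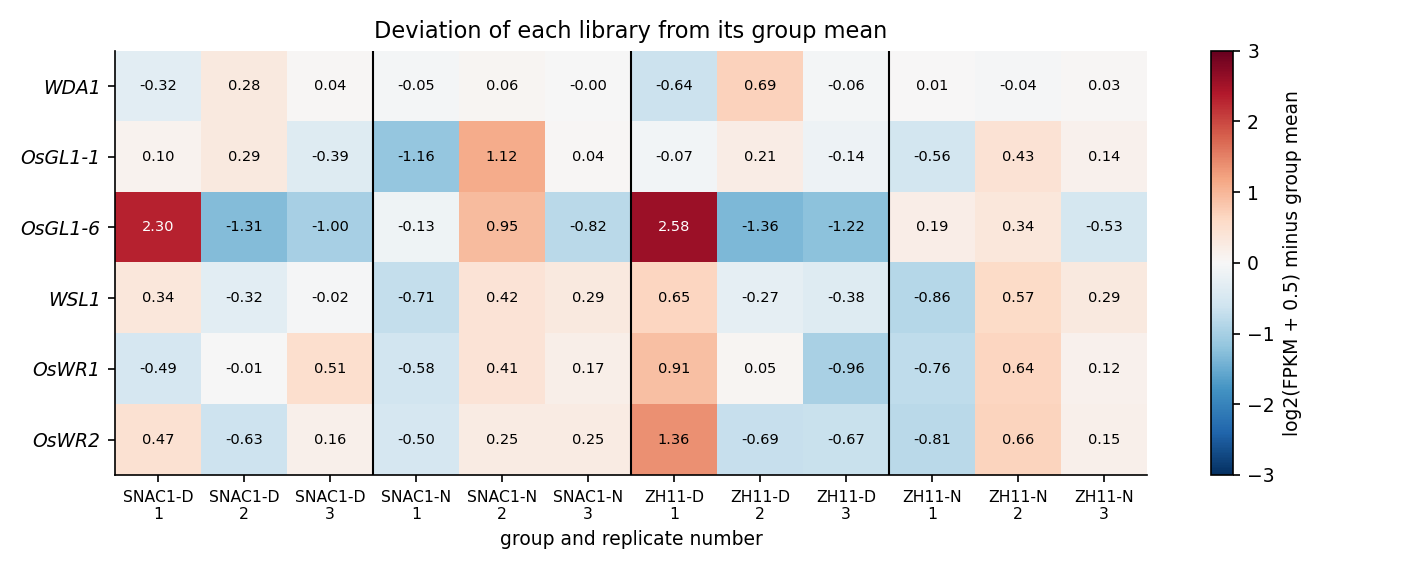
Deviation of each library from its group mean on the log2(FPKM + 0.5) scale (colour and printed value) for the 6 wax genes (rows) in the 12 libraries (columns). The drought libraries numbered 1 stand out for *OsGL1-6*, at 2.30 in SNAC1-D and 2.58 in ZH11-D, and lie above their group means for *WSL1* and *OsWR2* and below them for *WDA1*.

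The log2 values of the members were also set against each other over the 12 libraries. These correlations are a description, because the libraries fall into watered and droughted ones, which sets much of the value over all libraries, and because the members share every library. *WSL1* and *OsWR2* had the highest, with a Pearson r of 0.98 over the libraries and 0.90 for the deviations from the group means. *OsWR1* had 0.96 with each of *WSL1* and *OsWR2*, and 0.76 and 0.74 within groups. *OsGL1-6* had 0.88 with *OsWR2*, 0.85 with *WSL1* and 0.78 with *OsWR1*, and within groups 0.72, 0.52 and 0.25. *WDA1* was opposite to *OsWR2*, at -0.97 over the libraries and -0.70 within groups, and to *OsWR1*, at -0.89 but only -0.14 within groups. The within-group values of *WDA1* rest mostly on the drought libraries, which deviated by up to 0.694, against at most 0.0584 under normal conditions. Same-numbered drought libraries of the 2 genotypes also deviated together. *OsGL1-1* had values of 0.01 to 0.28 with the other 5 members over the libraries, but within groups it had 0.64 with *WSL1*, 0.47 with *OsWR1* and 0.31 with *OsWR2*.

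A high correlation was common in this table. With *OsWR2*, 1929 of the features tested (9.66%) had an r above 0.95, and with *WSL1* 1752 did, against 233 with *OsWR1*, 51 with *OsGL1-6* and 0 with *OsGL1-1*. The features nearest to *OsWR2* were LOC_Os06g28480 and LOC_Os01g58550 (r of 0.999 and 0.998), and those nearest to *WSL1* were LOC_Os01g11810 and LOC_Os04g50204 (both 0.996). Nearest to *OsWR1* were LOC_Os09g28550 and LOC_Os08g05520 (0.986 and 0.983), and nearest to *OsGL1-6* were LOC_Os01g25500 and LOC_Os04g31410 (0.980 and 0.978). For *OsGL1-1* they were LOC_Os02g55330 and LOC_Os01g14110 (0.918 and 0.911). The files do not pair these identifiers with gene names.

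The wider cuticle was represented by 17 other loci listed for wax and cutin, of which 13 passed the filter. Under drought in OE-19, 3 of the 13 were called higher, 7 lower and 3 were not called, and in ZH11 3 were called higher, 5 lower and 5 were not called. Their median log2FC was -1.27 in OE-19 and -0.93 in ZH11. Over all features 17.9% and 18.2% were called lower in OE-19 and ZH11, and 13.2% and 13.8% were called higher. Of the called loci, LOC_Os04g48070 averaged below 1 FPKM in both normal groups and passed the filter only through its drought libraries. LOC_Os10g28060 and LOC_Os03g04530 averaged below 1 FPKM in both drought groups and passed it only through the libraries from normal conditions. Their calls are within these counts, which are a description. Without these loci the list still held called loci in both directions, so a fall was not shared by all cuticle loci. *DHS* (LOC_Os02g45780), which encodes a RING-type E3 ubiquitin ligase known in rice as a negative regulator of wax synthesis, was higher under drought. It had 35.3, 41.8 and 25.6 FPKM in SNAC1-D and 7.43, 4.88 and 7.82 FPKM in SNAC1-N, against 27.1, 75.5 and 35.1 FPKM in ZH11-D and 9.0, 5.65 and 3.66 FPKM in ZH11-N. Its log2FC was 2.27 in OE-19 (SE 0.402, limma adjusted p = 0.000977) and 2.75 in ZH11 (limma adjusted p = 0.000279), with no overlap between drought and normal conditions.

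Of the loci without a name in the files, LOC_Os04g48070 averaged 7.03 FPKM in SNAC1-D and 0.815 FPKM in SNAC1-N, and 7.60 FPKM in ZH11-D and 0.882 FPKM in ZH11-N, with log2FC values of 2.55 and 2.59. LOC_Os02g08230 was also higher, with log2FC values of 1.43 in OE-19 and 1.72 in ZH11. Lower under drought were LOC_Os10g28060, whose log2FC was -3.08 in OE-19 and -3.07 in ZH11, and LOC_Os09g19930, with -3.0 and -3.21. Each cuticle locus called in both genotypes had the same direction in both. The 2 loci called lower in OE-19 but not in ZH11 had interaction p values that rounded to 1.00 after adjustment, so a difference between the genotypes was not shown. None of the 13 loci was called between the genotypes under either watering condition or in the difference of the responses.

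**Figure D4:**
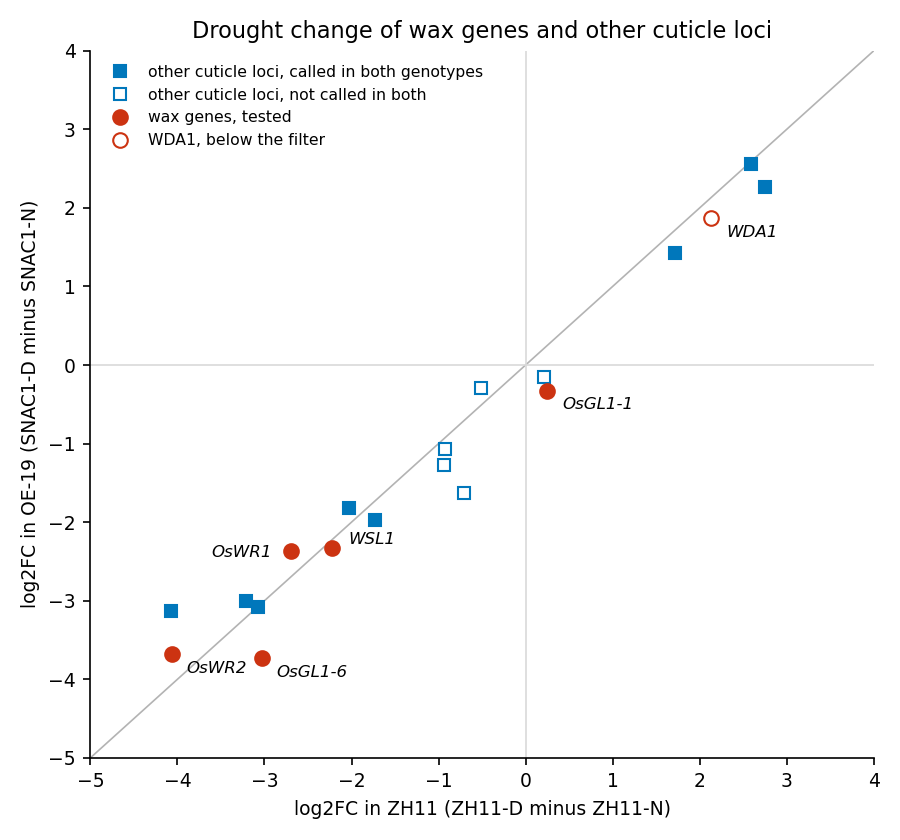
log2FC under drought in OE-19 (vertical axis, SNAC1-D minus SNAC1-N) against that in ZH11 (horizontal axis, ZH11-D minus ZH11-N) for the 6 wax genes (circles, *WDA1* open because it was below the filter) and the 13 other cuticle loci (squares, filled where called in both genotypes), with the line of equal change. The 4 called wax genes lie at the lower left, between -2.23 and -4.06, while *WDA1* and 3 other loci lie at the upper right and *OsGL1-1* near the origin.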

How the data were processed

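RNA-Seq reads of 12 leaf libraries were mapped by the authors to MSU 7.0, and FPKM values were deposited for 55490 features without a filter on low values. The submitters' processing notes list HISAT2 and StringTie, with versions not given in the sources used here. The sources describe 3 independent replicates per group, and whether these came from separate pots is not stated, so p-values measure the spread between these libraries.

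With R 4.3.3 and limma 3.58.1, log2(FPKM + 0.5) was tested for the 19979 features whose FPKM averaged 1 or more, in one fit of the 4 groups with a variance trend and no block. Tests were two-sided, the Benjamini-Hochberg adjustment ran over all features tested, and calls needed an adjusted p below 0.05 and a log2FC of at least 1 in size (the interaction only the adjusted p). Exact permutation tests of 3 against 3 libraries allow no p below 0.1. The scripts were tested on simulated data.

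Same-numbered libraries of OE-19 and ZH11 deviated together from their group means, with correlations of 0.882, 0.486 and 0.507 for the watered libraries and 0.589, 0.58 and 0.211 for the droughted ones. Between watering conditions the correlations were -0.127 to -0.0432. With the shared pots of the labels, the numbers were taken to pair libraries only within a watering condition.

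The members, the lists of cuticle and marker loci and the tests were chosen with earlier results of these data known. Named genes were the 6 members, *SNAC1*, called cuticle loci with a name, and the 2 features with the highest Pearson r to each tested member. For cuticle loci without a name, log2FC values were given for the 2 called higher and the 2 called lower with the smallest adjusted p in ZH11. The cuticle and anther lists share 2 loci, and 1 of 6 leaf marker loci was absent from the table used. A list by gene description and the SNAC1 ChIP-Seq tables, with the fold, p-value and mean columns of the authors' comparisons, were not used here, because no gene positions or descriptions for MSU 7.0 were at hand. Alternatives changed the pseudocount, filter, scaling, variance trend, fit, block, fold threshold and libraries.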

Additional observations from a re-analysis of the deposited data

How the results depend on the processing

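For the 5 tested wax genes, 585 log2FC values were recomputed over the alternatives, and 545 kept their direction and their status as called or not called, 14 lost the call, 0 gained one and 26 changed sign. Many alternatives could not change the log2FC, so that in them only the call was open. These were the changes of filter, variance trend, fit and block, and the removal of libraries outside the contrast. All 14 losses concern *OsGL1-6* under drought. Some uncalled values passed 1 on the log2 scale without passing the adjusted p, such as the genotype difference under normal conditions, which ranged with 1 library left out from 0.19 to 1.33 for *OsGL1-1* and from 0.40 to 1.28 for *OsGL1-6*. The number of members called stayed between 3 and 5 in each drought comparison and at 0 in the others. It reached 5 only in alternatives where *WDA1* passed the filter and was counted as called higher, and *OsGL1-1* was never called. With the replicate block, no call changed, and *OsGL1-6* had log2FC values of -3.73 in OE-19 (limma adjusted p = 0.00946) and -3.03 in ZH11 (limma adjusted p = 0.0228). That block gives each number a single effect across both watering conditions, although the numbers were taken to pair libraries only within a condition. Its smaller p values therefore do not make these calls firmer. Without the filter its adjusted p in ZH11 was 0.0762, and with the 6 libraries of that contrast alone 0.0563. The median of all features under drought was 0.00 and -0.01 in OE-19 and ZH11 with median ratio scaling and 0.12 and 0.09 with quantile normalization.

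Sign changes occurred only in values that were not called, and the cause was not tested. Leaving out 1 library at a time, *OsGL1-1* ranged from -0.91 to 0.23 for drought in OE-19, and for drought in ZH11 its range was -0.0319 to 0.46. Between genotypes under normal conditions, *WSL1* ranged from -0.25 to 0.54, *OsWR1* from -0.26 to 0.44 and *OsWR2* from -0.30 to 0.43. Under drought, *OsGL1-6* ranged from -0.99 to 1.45, *WSL1* from -0.10 to 0.41 and *OsWR1* from -0.0193 to 0.92. These genotype ranges leave out a library and keep its same-numbered partner in the other genotype. Both ends for *OsGL1-6* came from leaving out replicate 1 in 1 genotype only, and without both drought libraries numbered 1 its value was 0.30. For the difference of the responses, *OsGL1-6* ranged from -1.86 to 0.58, *WSL1* from -0.46 to 0.33 and *OsWR1* from -0.14 to 0.79. Without the 4 libraries numbered 1, *OsWR2* was -0.0522 between genotypes under normal conditions and the *WSL1* difference of responses was 0.13. That difference was 0.0525 without the 2 drought libraries numbered 1. *WDA1* had no test where the filter removed it, and the alternatives planned for ChIP-Seq were not run.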
